A study of Homo sapiens with 12 samples.

Results

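The genes described here are 58 protein-coding genes of bands 10q23 to 10q25, in the distal long arm of human chromosome 10. They were chosen on their measured level, because distal 10q stood lower in K/VP.5 than in K562 in these data. Every listed symbol was found once among the 58395 genes of the count table. RNA was sequenced from 12 libraries, 4 from each of 3 human leukemia lines. The parental line, K562, was established from a chronic myeloid leukemia in its blast phase and bears BCR-ABL. Its clonal subline K/VP.5 resists etoposide, a topoisomerase II poison. The third line, K/VP.5/edit-3 (edit-3 below), is 1 clone of K/VP.5 made by delivering Cas9 with guide RNA and an oligonucleotide template, which altered the 5′ splice site between exon 19 and intron 19 of TOP2A, the gene of topoisomerase IIα. All 3 lines share the K562 background, edit-3 was derived from K/VP.5, and K/VP.5 and edit-3 are each a single clone, so clone and line cannot be told apart. The labels describe medium to which 0.5 µM etoposide was added at intervals for the 3 lines together, and leave unsaid whether a line's 4 libraries are separate cultures. The p-values therefore cover only the spread among these libraries, which may be technical.

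Neighbouring genes on a chromosome arm are mostly transcribed one by one from their own promoters, but they share their DNA copy number, their place in the nucleus and, in some pairs, a start region. The listed genes do unrelated work in the cell: they include a ring subunit of cohesin, a kinase and a precursor of the NF-κB pathway, factors that build ribosomes, and enzymes of amino acid, lipid and nucleotide metabolism. DNA copy number was not measured in these libraries.

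Library totals ran from 25.3 to 37.1 M reads, with a median of 29.6 M. Of the 14 fixed erythroid and K562 markers, 13 stood above 1 CPM (read counts put on a common scale by TMM-adjusted library size) in each line, with summed levels of 4495 to 5835 CPM in K562, 3701 to 4470 CPM in K/VP.5 and 3544 to 5028 CPM in edit-3. All 4 monocyte markers were below 1 CPM on average in each line, and of the 6 lymphocyte markers MS4A1 had 0 reads while CD3D and CD3G were among those above 1 CPM in each line. The 6 fibroblast and epithelial markers summed to 168 to 187 CPM in K562, 366 to 446 CPM in K/VP.5 and 2038 to 3277 CPM in edit-3, the last mostly from COL1A2, a collagen gene, while KRT5 had 0 reads in all lines. Their part in the results was not tested. K562 replicate 4 and edit-3 replicate 1 stood at the opposite ends of an axis that held 39.8% of the spread within lines.

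The 4 stretches of RefSeq sequence around gene starts (build GRCh38.p14, 250 bases before to 50 bases after the annotated start, 5′ to 3′ on the gene's strand) are shown because the members they belong to carry the results below. MINPP1 and ARL3 had the lowest fold changes of edit-3 against K/VP.5, PCGF5 rose in that comparison, and the ZDHHC16 window holds the annotated starts of 2 members. Capitals mark matches on either strand to the GC box, which reads GGGCGG, to the CCAAT box, to the TATA box, which reads TATAAA, to the E-box, which reads CACGTG, and to the GATA motif, which reads AGATAA, and adjoining or overlapping matches run together.
MINPP1 (chr10:87504643-87504942, plus strand): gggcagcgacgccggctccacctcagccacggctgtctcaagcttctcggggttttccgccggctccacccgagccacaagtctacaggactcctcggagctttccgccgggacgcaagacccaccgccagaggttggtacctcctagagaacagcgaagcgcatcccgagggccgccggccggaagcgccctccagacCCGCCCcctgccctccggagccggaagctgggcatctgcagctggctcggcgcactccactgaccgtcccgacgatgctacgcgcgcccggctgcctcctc
ARL3 (chr10:102714348-102714647, minus strand): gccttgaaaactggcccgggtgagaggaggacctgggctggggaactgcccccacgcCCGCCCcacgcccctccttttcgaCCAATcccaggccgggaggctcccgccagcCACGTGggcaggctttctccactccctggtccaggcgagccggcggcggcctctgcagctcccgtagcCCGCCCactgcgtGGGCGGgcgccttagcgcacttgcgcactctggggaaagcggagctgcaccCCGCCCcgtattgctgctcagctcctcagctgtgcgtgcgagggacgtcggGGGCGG
PCGF5 (chr10:91162762-91163061, plus strand): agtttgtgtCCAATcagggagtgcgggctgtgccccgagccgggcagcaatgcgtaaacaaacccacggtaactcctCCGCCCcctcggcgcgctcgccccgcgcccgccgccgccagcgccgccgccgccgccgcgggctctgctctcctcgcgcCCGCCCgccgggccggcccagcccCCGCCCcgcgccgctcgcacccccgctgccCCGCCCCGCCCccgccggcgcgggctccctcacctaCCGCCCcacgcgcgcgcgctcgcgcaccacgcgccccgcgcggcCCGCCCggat
ZDHHC16 (chr10:97445925-97446224, plus strand): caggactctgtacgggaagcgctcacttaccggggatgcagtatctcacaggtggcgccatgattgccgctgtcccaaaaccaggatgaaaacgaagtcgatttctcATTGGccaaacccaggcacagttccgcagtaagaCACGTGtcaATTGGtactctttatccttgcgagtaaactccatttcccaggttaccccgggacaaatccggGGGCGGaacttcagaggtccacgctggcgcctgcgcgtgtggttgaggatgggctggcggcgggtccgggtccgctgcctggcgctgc

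The MINPP1 window held 1 GC box and none of the other motifs. ARL3 had 5 GC boxes, 1 CCAAT box and 1 E-box, and PCGF5 had 7 GC boxes and 1 CCAAT box. In the ZDHHC16 window the GENCODE starts of ZDHHC16 (97446131, plus strand) and EXOSC1 (97446017, minus strand) lay 114 bases apart, with 2 CCAAT boxes, 1 E-box and 1 GC box in the stretch shown. RefSeq windows were matched by symbol for 51 of the 58 members. The 81 windows of these members held a GC box in 61.7% of cases, against 45.0% of all 35116 windows of the same length, and a CCAAT box in 40.7% against 34.6%. The TATA box was found in 4.94% against 11.5%, the E-box in 9.88% against 7.26%, and the GATA motif in 12.3% against 10.3%. These matches are descriptions of the letters only, and windows of 1 gene overlap each other.

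Of the 58 members, 56 had enough reads to be tested. BLNK, an adaptor of the B cell receptor, had 3, 3 and 2 reads over the 4 libraries of K562, of K/VP.5 and of edit-3. LIPA, the lysosomal acid lipase, had 1, 3 and 29 reads. PIK3AP1 passed the filter on low counts, but only in edit-3 were all 4 libraries above it. The other 55 tested members were above the filter in all 12 libraries. By exon annotation, 15 members overlap a tested gene, 13 of them on the opposite strand (CHUK shares sequence with ERLIN1 on its own strand). How the counting treated strand is not stated in the sources, so reads of such pairs may be mixed. Named pseudogenes exist for 6 members (PGAM1 13, GLUD1 5, PDLIM1 4, BMPR1A and CCNJ 2 each, SCD 1), and reads they share with these copies are uncertain.

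K/VP.5 was set against K562 to describe how the resistant subline differs from its parent. Since this comparison chose the genes, its values describe the choice and nothing is tested with them. With a fitted log2 fold change for each gene, 45 of 56 tested members stood lower in K/VP.5 and 2 higher at an edgeR adjusted p under 0.05, where 18.3% of all 18286 tested genes were called lower and 18.3% higher. Their median log2 fold change was -0.56, a ratio of 0.677, and the middle 50% lay between -0.67 and -0.39. Over all tested genes the median was 0.0026. In such bulk libraries, fewer cells of a kind and less RNA per cell cannot be told apart.

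The level was lower across the list in every K/VP.5 library. Taken as log2 ratios to the K562 mean, the median over members was 0.08, -0.04, 0.02 and -0.08 in the 4 K562 libraries, -0.48, -0.58, -0.50 and -0.58 in K/VP.5, and -0.57, -0.57, -0.70 and -0.66 in edit-3. In each K/VP.5 library 52 of 56 members lay below their K562 mean, and in the edit-3 libraries 50 or 51 did. The K562 medians lay above those of all other libraries. For K/VP.5 this follows from the choice of the genes and tests nothing, and edit-3 was derived from K/VP.5. The K/VP.5 and edit-3 medians overlapped.

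**Figure D1:**
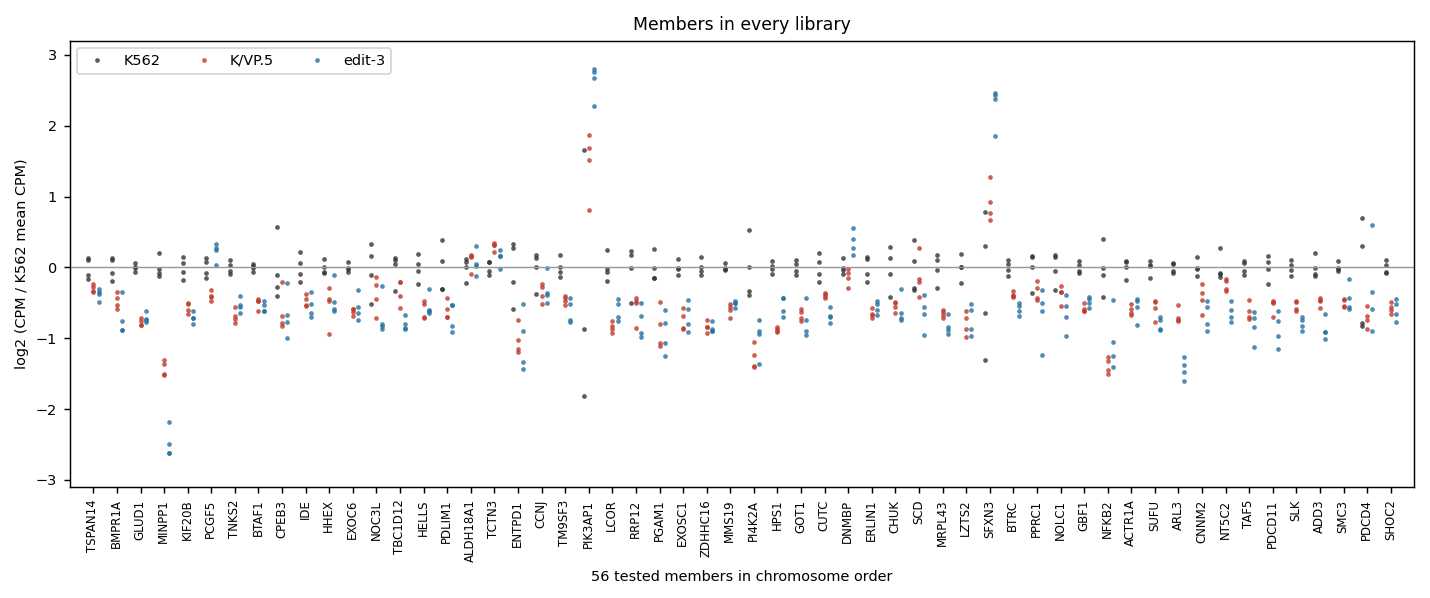
Each column is 1 of the 56 tested members in chromosome order, and each point is 1 library, as log2 of its CPM over the mean CPM of the 4 K562 libraries. K/VP.5 and edit-3 points lie below 0 for most members, and those of PIK3AP1 and SFXN3 lie above it. The value of K562 replicate 4 for PIK3AP1, with 0 reads, is not drawn.

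By position, the lower level was shared with genes that were not listed. Distal 10q as a region was picked for being lower in K/VP.5 than in K562. The values of unlisted distal genes in that comparison therefore describe the choice too and test nothing. The members span 30.56 Mb, from TSPAN14 (chr10:80454166-80533123, plus strand) to SHOC2 (chr10:110919547-111013667, plus strand; GRCh38, GENCODE 29). Among 100 other tested protein-coding genes inside this span, 70 stood lower in K/VP.5 than in K562 and 12 higher, with a median log2 fold change of -0.59. The 256 tested protein-coding genes of chromosome 10 before the span gave 50 lower, 48 higher and a median of 0.05. The 74 after the span, out to the chromosome end, gave 53 lower, 5 higher and a median of -0.50. TSPAN14 itself stood at a log2 fold change of -0.30, and the 5 other tested genes between it and BMPR1A, the next member, at a median of -0.09 with 2 lower and 2 higher. From BMPR1A to the chromosome end, 165 of 224 genes stood lower and 17 higher.

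In edit-3 against K562 the same stretches gave medians of 0.02 before the span, -0.66 for the 100 other genes inside it and -0.51 after it. In edit-3 against K/VP.5 these medians were -0.03, -0.01 and -0.04. Inside the list, the fold changes had no marked order along the chromosome or by level: across the 56 genes, Spearman's rho with position was -0.01 for K/VP.5 against K562, -0.12 for edit-3 against K/VP.5 and -0.17 for edit-3 against K562, and with the mean level 0.06, -0.19 and 0.02. Genes are not independent replicates, and these values are descriptions.

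**Figure D2:**
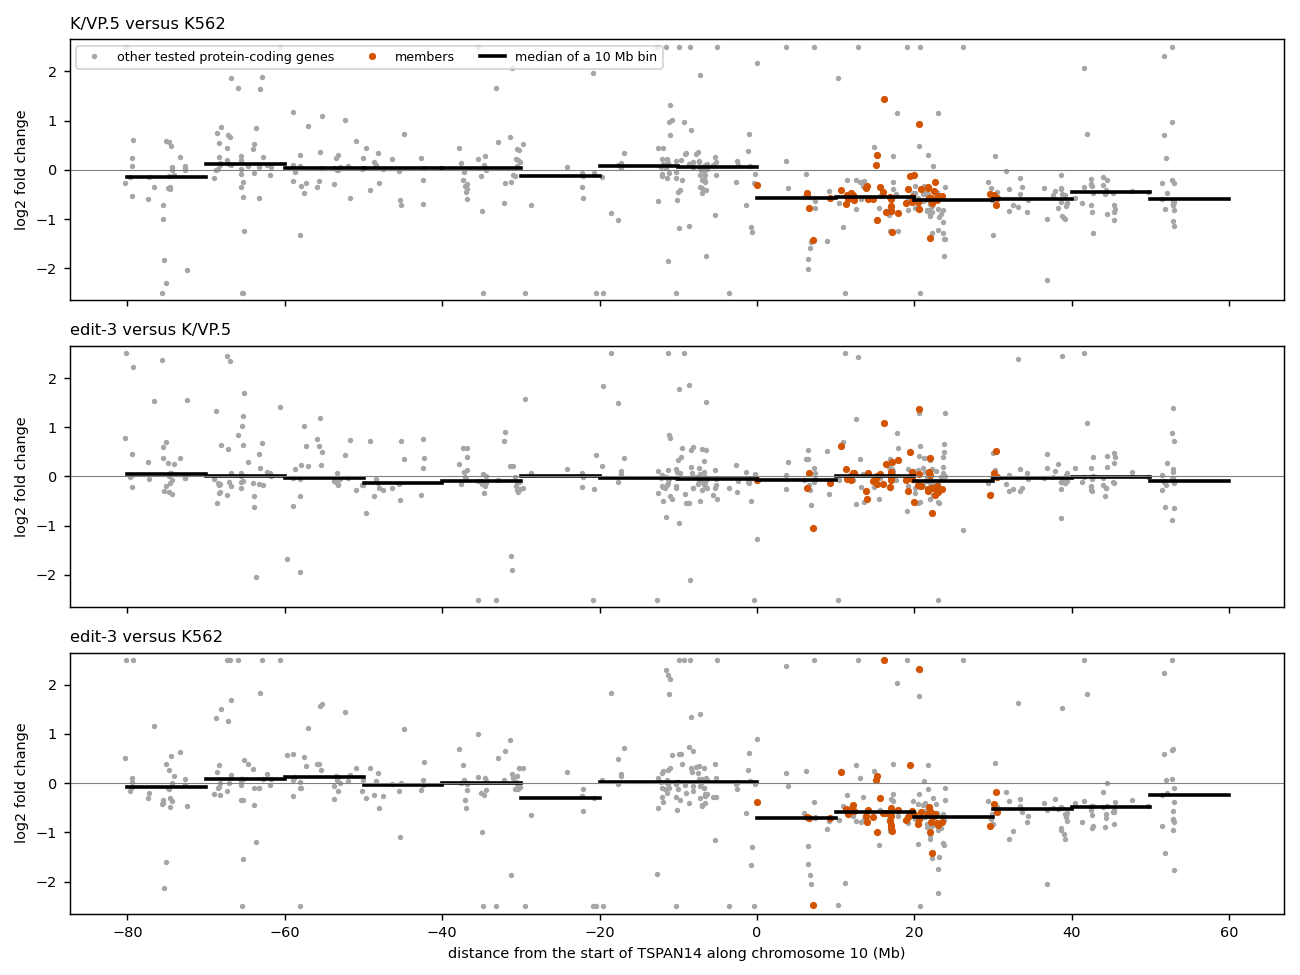
Log2 fold change of 486 tested protein-coding genes of chromosome 10 against distance from the start of TSPAN14 (Mb), in 3 panels for the 3 comparisons. Orange points are members, grey points other genes, and black lines medians of 10 Mb bins with at least 10 genes; values beyond the axis are drawn at its edge (26, 13 and 30 genes). In the upper panel the bin medians run from -0.14 to 0.11 before 0 Mb and from -0.61 to -0.46 beyond it, and in the middle panel they lie near 0 on both sides.

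The edited clone was set against K/VP.5, the line it came from, and against the parental K562 cells. The edit-3 libraries did not enter the choice of the genes, while the K/VP.5 and K562 libraries did and are shared between the comparisons. The genes were chosen for standing higher in these same K562 libraries than in K/VP.5, from which edit-3 was derived. Values of edit-3 against K562, here and below, are therefore descriptions and test nothing about the list. Against K/VP.5, 7 of 56 members fell and 4 rose in edit-3, with 45 that did not pass the test and a median log2 fold change of -0.05. Of all tested genes, 10.6% were called lower and 12.9% higher in that comparison, against 12.5% and 7.14% of the members, so the members' share called was near the background. Against K562, 48 of 56 members were lower and 4 higher in edit-3, with a median of -0.63 (ratio 0.646), where 18.6% of all tested genes were called lower and 20.6% higher. Of the 4 higher, PIK3AP1 was above the filter on low counts in all 4 libraries only in edit-3. Of the 55 members above the filter in all libraries, 48 were lower and 3 higher. The 4 that did not pass were ALDH18A1, TCTN3, CCNJ and PDCD4. A p that misses the threshold does not show that a member was unchanged. The shares of all tested genes given here are also the background for the counts by role and by partner list below.

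**Figure D3:**
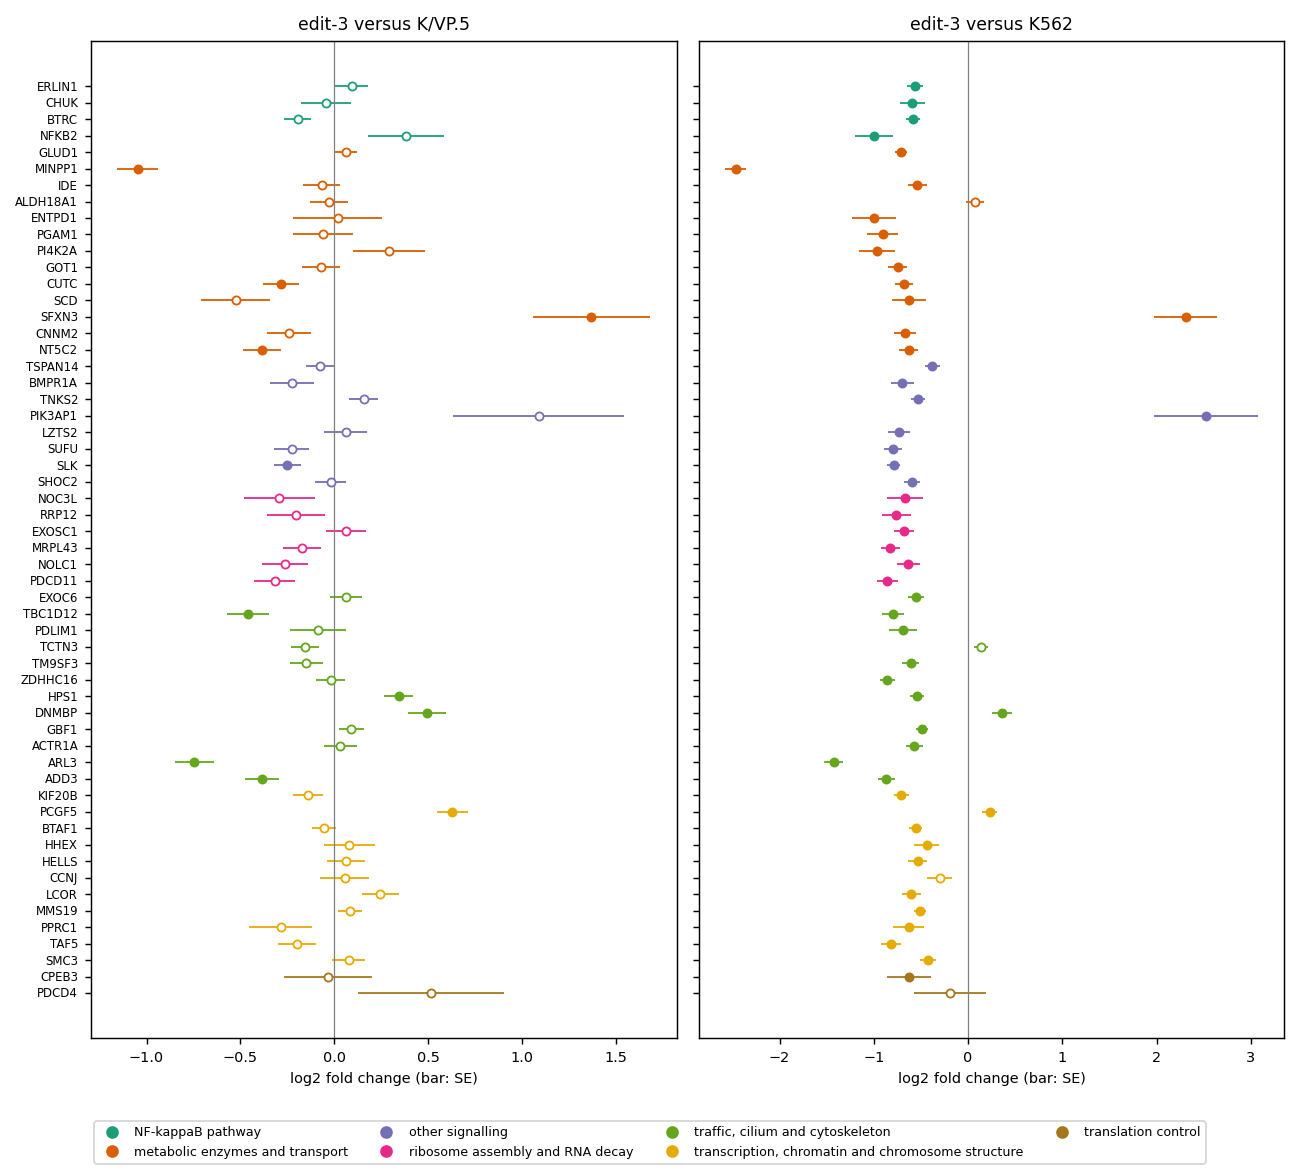
Fitted log2 fold changes with their SE for the 56 tested members, coloured by role, for edit-3 against K/VP.5 (left) and edit-3 against K562 (right). Filled points passed an edgeR adjusted p under 0.05 and open points did not. On the left 11 points are filled, 7 of them below 0, and on the right 48 filled points lie below 0 and 4 above it; ERLIN1 is coloured with the NF-κB genes.

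Ribosome assembly and RNA decay was represented by 6 members. All 6 were lower in edit-3 than in K562 (median log2 fold change -0.72), and none passed the test against K/VP.5 (median -0.23). Of the 6, 5 stood lower in K/VP.5 than in K562. RRP12, which helps pre-ribosomal particles mature and leave the nucleus, was measured at 295, 249.9, 283 and 178 CPM in the K562 libraries, 186, 178, 181 and 139 CPM in those of K/VP.5 and 177, 127, 156 and 133 CPM in those of edit-3. The K562 values spread widely, and K562 replicate 4 lay within the range of K/VP.5 and just above the highest edit-3 library. Edit-3 was lower than K562 (log2 fold change -0.76, SE 0.16, edgeR adjusted p = 0.0013). Against K/VP.5 RRP12 passed only without K562 replicate 4 and edit-3 replicate 1 (log2 fold change -0.30, adjusted p = 0.043, within a range of 0.043 to 0.63 over all alternatives). Means for PDCD11, a factor of pre-rRNA processing, were 472 ± 53.8 CPM in K562, 325 ± 22.2 CPM in K/VP.5 and 260.3 ± 42.3 CPM in edit-3 (SD, n = 4), and its test against K/VP.5 did not pass (edgeR adjusted p = 0.052). EXOSC1, a cap subunit of the RNA-degrading exosome, and ZDHHC16, a protein acyltransferase whose start lies in the window shown above, were picked out after their values were seen. EXOSC1 had means of 35.7 ± 2.40, 21.3 ± 2.14 and 22.3 ± 3.096 CPM in K562, K/VP.5 and edit-3. ZDHHC16 had 42.7 ± 3.33, 23.9 ± 1.21 and 23.6 ± 1.12 CPM. Both were lower in edit-3 than in K562 (log2 fold changes -0.68 and -0.86, edgeR adjusted p = 0.00011 and 4.9e-07).

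Of 24 tested exosome and pre-ribosome genes outside the list, 4 were higher and 5 lower in edit-3 than in K562 (median -0.05). The background was 20.6% higher and 18.6% lower over all tested genes. Against K/VP.5, 1 of the 24, NOP14, fell (log2 fold change -0.44, SE 0.11, edgeR adjusted p = 0.0065), where 10.6% of all tested genes fell. EXOSC3 and EXOSC8, other exosome subunits, were higher in edit-3 than in K562 by 0.99 and 0.68 on the log2 scale (edgeR adjusted p = 0.00034 and 7.6e-06). DIS3 and EXOSC10, its nucleases, were higher too, by 0.33 and 0.28 (0.0091 and 0.026). EXOSC5 and EXOSC4, 2 further subunits, were lower as EXOSC1 was (log2 fold changes -0.58 and -0.45, edgeR adjusted p = 8.3e-06 and 0.012). The last 4 genes were picked out after their values were seen.

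The group of transcription, chromatin and chromosome structure had 11 members. Of these, 9 were lower and 1 higher in edit-3 than in K562 (median -0.54), while 1 rose and none fell against K/VP.5 (median 0.06). SMC3 (chr10:110567691-110604636, plus strand), an ATPase of the cohesin ring that holds sister chromatids together, was measured at 135, 124, 126 and 122 CPM in the K562 libraries, 92.1, 87.0, 92.6 and 85.6 CPM in those of K/VP.5 and 94.2, 113, 84.1 and 85.7 CPM in those of edit-3. All 4 K562 libraries were above the other 8, and edit-3 overlapped K/VP.5. Edit-3 was lower than K562 (log2 fold change -0.43, SE 0.087, edgeR adjusted p = 0.0011). Of 12 cohesin partners, 2 were higher and 2 lower in edit-3 than in K562 (median -0.01), against 20.6% and 18.6% of all tested genes. SMC1A, which pairs with SMC3 in the ring, was higher by 0.19 on the log2 scale (SE 0.053, edgeR adjusted p = 0.0088), and RAD21, which closes the ring, did not pass (log2 fold change -0.01, edgeR adjusted p = 0.95). PDS5A, a regulator bound to the ring, was lower (log2 fold change -1.21, edgeR adjusted p = 4.4e-08). ESCO1 was lower too (log2 fold change -0.80, edgeR adjusted p = 4.2e-06), and PDS5B was higher (log2 fold change 0.44, edgeR adjusted p = 0.00030).

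TAF5 (chr10:103367967-103389065, plus strand), a scaffold subunit of the promoter-binding complex TFIID, stood at 49.96, 46.0, 50.8 and 44.5 CPM in the K562 libraries, 29.5, 28.97, 34.8 and 31.0 CPM in those of K/VP.5 and 30.8, 21.8, 26.6 and 29.1 CPM in those of edit-3. No K562 library overlapped the other lines, and edit-3 was lower than K562 (log2 fold change -0.82, SE 0.1, edgeR adjusted p = 1.5e-05). Its exons overlap those of ATP5MD on the other strand. The 16 TFIID and BTAF1 partners had 2 higher and 1 lower in edit-3 than in K562 (median -0.04). Of all tested genes, 20.6% were higher and 18.6% lower. The lower partner was TAF10 (log2 fold change -1.24, edgeR adjusted p = 3.1e-07).

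HELLS, a chromatin remodeler needed for DNA methylation, was measured at 95.4, 80.8, 85.9 and 71.1 CPM in the K562 libraries, 59.8, 51.5, 58.0 and 50.7 CPM in those of K/VP.5 and 67.3, 54.2, 53.4 and 54.8 CPM in those of edit-3. K562 stood above both other lines in every library, and the edit-3 to K562 difference passed (log2 fold change -0.54, SE 0.1, edgeR adjusted p = 0.00068). HHEX, a homeobox regulator of blood and endoderm development, had 118, 116, 134 and 123 CPM in the K562 libraries, 90.2, 64.0, 99.9 and 88.3 CPM in those of K/VP.5 and 81.3, 114, 87.1 and 79.7 CPM in those of edit-3. The K562 libraries were the highest by a small margin over edit-3 replicate 2 (log2 fold change -0.44, SE 0.13, edgeR adjusted p = 0.017), and without K562 replicate 4 and edit-3 replicate 1 the adjusted p was 0.077 (0.0017 to 0.047 when single libraries were left out). LCOR, a corepressor of nuclear receptors, had means of 151 ± 19.8, 84.2 ± 4.21 and 99.8 ± 10.3 CPM in K562, K/VP.5 and edit-3 and did not pass against K/VP.5 (log2 fold change 0.25, SE 0.097, edgeR adjusted p = 0.083). With the replicate number as a block LCOR passed (log2 fold change 0.24, adjusted p = 0.041, within a range of 0.041 to 0.21 over all alternatives).

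PCGF5 (chr10:91163012-91284331, plus strand) departed from this order. It encodes a RING finger subunit of a Polycomb repressive complex that places ubiquitin on histone H2A. Its levels were 65.8, 59.1, 56.5 and 68.7 CPM in the K562 libraries, 47.2, 47.0, 45.1 and 50.1 CPM in those of K/VP.5 and 78.6, 74.4, 64.1 and 75.4 CPM in those of edit-3. Every edit-3 library was above every K/VP.5 library, and edit-3 overlapped K562. PCGF5 rose in edit-3 against K/VP.5 (log2 fold change 0.63, SE 0.084, edgeR adjusted p = 6e-05; ratio 1.54). The difference from K562 was small (log2 fold change 0.23, SE 0.083, edgeR adjusted p = 0.042) and rested on single libraries and settings. Without K562 replicate 2 or 3, or edit-3 replicate 1, 2 or 4, the adjusted p was 0.16, 0.14, 0.11, 0.072 and 0.12, and it was 0.095 with no filter on low counts and 0.11 with the 2 lines alone, over a range of 0.010 to 0.16 for all alternatives.

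**Figure D4:**
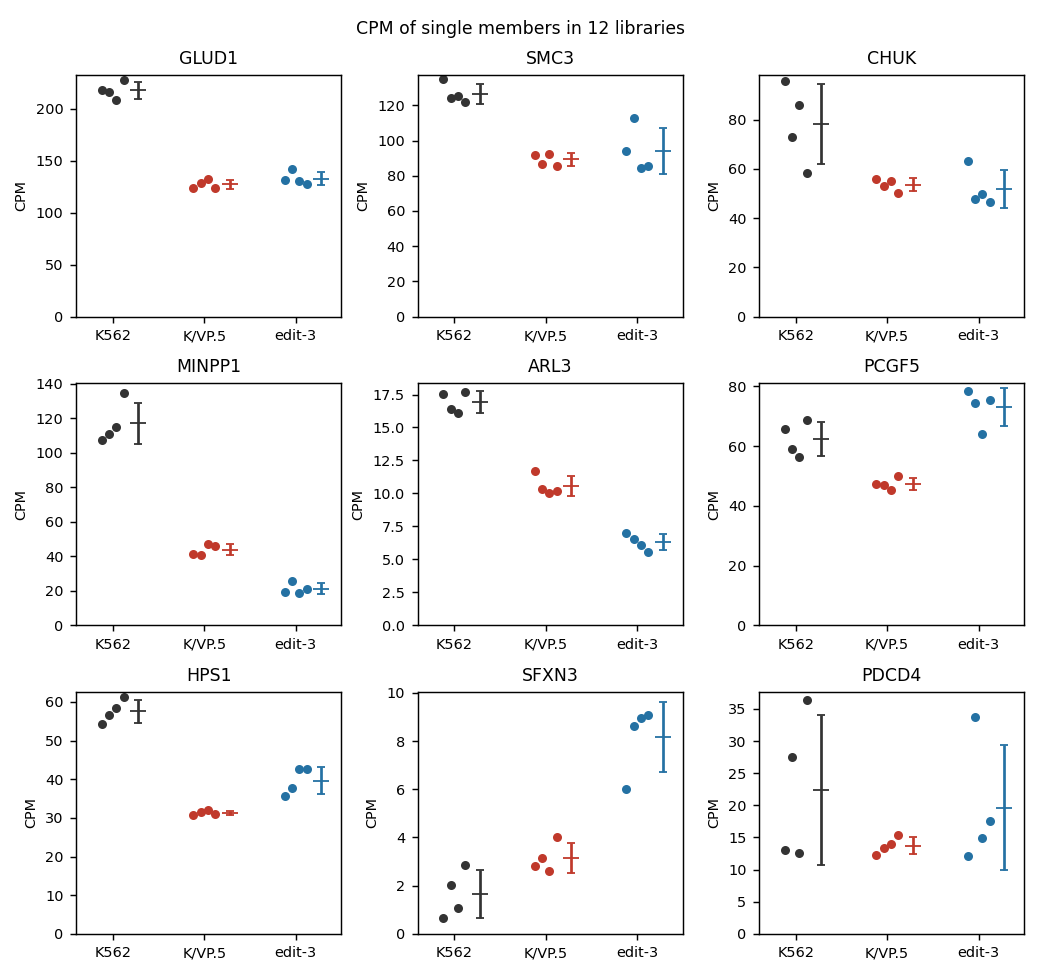
CPM in all 12 libraries for GLUD1, SMC3, CHUK, MINPP1, ARL3, PCGF5, HPS1, SFXN3 and PDCD4, each panel with its own axis from 0. Points are libraries and the bars are the mean and SD of the 4 libraries of a line. MINPP1 and ARL3 step down from K562 to K/VP.5 and again to edit-3, PCGF5 and HPS1 stand higher in edit-3 than in K/VP.5, and PDCD4 overlaps between lines.

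The NF-κB group held 3 pathway genes, CHUK, NFKB2 and BTRC, and was listed together with ERLIN1, which encodes an endoplasmic reticulum protein and is not known as a component of the pathway. The 3 pathway genes and ERLIN1 were all lower in edit-3 than in K562 (with a median over the 4 of -0.59), and none passed the test against K/VP.5 (median 0.02). In the alternative arm of this pathway, the kinase IKKα, encoded by CHUK, phosphorylates the p100 precursor, encoded by NFKB2, which is trimmed to p52, and BTRC encodes the ubiquitin ligase adaptor that recognises phosphorylated p100 and IκB. CHUK (chr10:100188298-100229619, minus strand) stood at 95.7, 73.1, 86.1 and 58.4 CPM in the K562 libraries, 55.95, 53.0, 55.2 and 50.2 CPM in those of K/VP.5 and 63.3, 47.8, 49.97 and 46.7 CPM in those of edit-3. Edit-3 replicate 1 lay above K562 replicate 4, so these groups overlapped, and edit-3 was lower than K562 by the test (log2 fold change -0.59, SE 0.13, edgeR adjusted p = 0.0026). NFKB2 (chr10:102394110-102402529, plus strand) had 44.5, 59.3, 55.3 and 78.8 CPM in the K562 libraries, 21.8, 21.0, 24.8 and 23.8 CPM in those of K/VP.5 and 22.3, 43.1, 28.6 and 25.02 CPM in those of edit-3. Here the lowest K562 library was just above the highest edit-3 library, replicate 2, and the other edit-3 libraries lay near K/VP.5 (log2 fold change -0.999, SE 0.2, edgeR adjusted p = 0.0014 against K562). The test against K/VP.5 did not pass (log2 fold change 0.38, SE 0.2, edgeR adjusted p = 0.2). Without edit-3 replicate 2 that log2 fold change was 0.15, and without K562 replicate 4 and edit-3 replicate 1 it was 0.50 and passed (adjusted p = 0.040, within a range of 0.040 to 0.58 over all alternatives). BTRC had means of 51.6 ± 3.55, 39.4 ± 1.07 and 34.4 ± 2.003 CPM in K562, K/VP.5 and edit-3, and ERLIN1, whose exons share sequence with CHUK on the same strand, had 54.2 ± 6.30, 34.5 ± 1.48 and 36.7 ± 2.21 CPM.

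Of 16 NF-κB and IKK genes outside the list, 5 were lower and 2 higher in edit-3 than in K562 (median -0.21), against 18.6% and 20.6% of all tested genes. The largest were NFKB1 (log2 fold change -1.24, edgeR adjusted p = 3.7e-07), which encodes p105, IKBKG (-1.23, 1.3e-07), the regulatory subunit that joins IKKα and IKKβ, and RELA (-0.71, 7.4e-07). RELB, the partner of p52, rose in edit-3 against K/VP.5 (0.998, SE 0.31, edgeR adjusted p = 0.031) and NFKBIA, which encodes IκBα, fell (-0.66, SE 0.090, 8e-05). The level of RELB was low, with means of 2.49, 1.02 and 2.04 CPM in K562, K/VP.5 and edit-3. Its test of edit-3 against K562 did not pass (log2 fold change -0.28, edgeR adjusted p = 0.50).

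Of 9 other signalling members 8 were tested. In edit-3, 7 were lower and 1 higher than in K562 (median -0.65), and 1, SLK, fell against K/VP.5 (median -0.05). The higher member was PIK3AP1, described below. Its libraries were all above the filter on low counts only in edit-3, where it was highest, so its call supports nothing. BMPR1A (chr10:86756601-86932838, plus strand), a receptor kinase for bone morphogenetic proteins, was measured at 56.2, 48.5, 55.2 and 44.9 CPM in the K562 libraries, 35.5, 37.9, 40.3 and 34.2 CPM in those of K/VP.5 and 30.4, 40.4, 27.8 and 27.8 CPM in those of edit-3. All K562 libraries were above the other 8, and edit-3 replicate 2 stood apart from the other edit-3 libraries (log2 fold change -0.70, SE 0.12, edgeR adjusted p = 0.00026 against K562). The test against K/VP.5 did not pass (log2 fold change -0.23, SE 0.12, edgeR adjusted p = 0.2), but did without edit-3 replicate 2 (log2 fold change -0.37, adjusted p = 0.013; range 0.013 to 0.39 when single libraries were left out). SLK, a kinase of cell shape and motility, had means of 180.2 ± 12.1, 124 ± 6.61 and 104 ± 6.34 CPM (log2 fold change -0.25, SE 0.072, edgeR adjusted p = 0.02 for edit-3 against K/VP.5). SUFU, which restrains Hedgehog signalling, and SHOC2, which helps activate RAF kinases, were lower in edit-3 than in K562 by -0.80 and -0.59 on the log2 scale (edgeR adjusted p = 5.7e-06 and 4.4e-05). Of 9 SHOC2 and RAS partners, 3 were lower and 1 higher in edit-3 than in K562, against 18.6% and 20.6% of all tested genes. MRAS, which binds SHOC2, was higher (log2 fold change 1.42, edgeR adjusted p = 7.9e-06).

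PIK3AP1, an adaptor that links receptors of immune cells to phosphoinositide 3-kinase, ran opposite to its neighbours at a very low level. It had 15, 47 and 94 reads over the 4 libraries of K562, of K/VP.5 and of edit-3, or 0.0354, 0.393, 0.0683 and 0 CPM in the K562 libraries, 0.454, 0.354, 0.218 and 0.400 CPM in those of K/VP.5 and 0.840, 0.868, 0.793 and 0.603 CPM in those of edit-3. Only in edit-3, where it was highest, were all 4 libraries above the filter on low counts. At so few reads the order of the lines and the tests are descriptions and support nothing. The log2 fold change of edit-3 was 2.52 against K562 and 1.09 against K/VP.5. K562 replicate 2 held most of the K562 reads, and without it the first of these was 4.25. Against K/VP.5 the edgeR adjusted p was 0.1, and 0.012 with only the 2 lines compared, within a range of 0.012 to 0.23 over all alternatives.

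The metabolic group held both the desaturase SCD and enzymes of amino acid and nucleotide metabolism. Of 13 tested members, 11 were lower and 1 higher in edit-3 than in K562 (median -0.68), and 3 fell and 1 rose against K/VP.5 (median -0.07). MINPP1 (chr10:87504875-87553460, plus strand), a phosphatase of the secretory pathway that removes phosphates from inositol polyphosphates, was measured at 107, 111, 115 and 135 CPM in the K562 libraries, 41.0, 40.8, 47.3 and 45.7 CPM in those of K/VP.5 and 19.1, 25.7, 18.9 and 20.8 CPM in those of edit-3. The 3 lines did not overlap, with K562 highest and edit-3 lowest. Means were 117 ± 12.1, 43.7 ± 3.28 and 21.1 ± 3.18 CPM (SD, n = 4). MINPP1 fell in edit-3 against K/VP.5 (log2 fold change -1.05, SE 0.11, edgeR adjusted p = 4.3e-06; ratio 0.484) and against K562 (log2 fold change -2.47, SE 0.11, edgeR adjusted p = 2.4e-10; ratio 0.181). Its fold change was the lowest of the 56 members in all 3 comparisons.

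NT5C2, a cytosolic nucleotidase that acts on purine nucleotides, stood at 42.2, 31.7, 32.6 and 33.0 CPM in the K562 libraries, 30.5, 27.7, 31.1 and 28.3 CPM in those of K/VP.5 and 25.05, 23.1, 21.6 and 20.3 CPM in those of edit-3. Edit-3 lay below both other lines in every library and fell against K/VP.5 (log2 fold change -0.39, SE 0.1, edgeR adjusted p = 0.012). Its exons overlap CNNM2 on the other strand, and CNNM2, a magnesium transport protein, did not pass in that comparison (log2 fold change -0.24, SE 0.12, edgeR adjusted p = 0.15). CUTC, a copper-binding protein, also fell (log2 fold change -0.29, SE 0.096, edgeR adjusted p = 0.043), close to the threshold; its exons overlap ENTPD7 on the same strand.

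SCD (chr10:100347124-100364834, plus strand), the desaturase that makes oleate from stearate, had 2107, 2792, 2141 and 3437 CPM in the K562 libraries, 1970.0, 2281, 2346 and 3162 CPM in those of K/VP.5 and 1348, 1779.8, 1994 and 1661 CPM in those of edit-3. K562 libraries spread from 2107 to 3437 CPM, and edit-3 overlapped K/VP.5 only through replicate 3. Against K/VP.5 it did not pass (log2 fold change -0.52, SE 0.18, edgeR adjusted p = 0.06), though the adjusted p was under 0.05 with DESeq2 (0.019), with the replicate number as a block (0.0095), with the 2 lines alone (0.024), and without K/VP.5 replicate 1 (0.037) or edit-3 replicate 3 (0.049), within a range of 0.0095 to 0.14. Against K562 SCD was lower (log2 fold change -0.63, SE 0.18, edgeR adjusted p = 0.017), but without K562 replicate 4 and edit-3 replicate 1 the log2 fold change was -0.37 with an adjusted p of 0.11, and with no filter on low counts the adjusted p was 0.055 (range 0.0020 to 0.11). Of 8 fatty acid synthesis partners, 3 fell and 1 rose in edit-3 against K/VP.5, where 10.6% of all tested genes fell and 12.9% rose. ELOVL6, which lengthens palmitate to stearate, fell (log2 fold change -1.09, SE 0.096, edgeR adjusted p = 9.4e-07), as did FASN, the fatty acid synthase (-0.54, SE 0.18, 0.045). SCD5, another desaturase gene, rose (1.29, SE 0.28, 0.0035) from a low level of 2.94 CPM in K/VP.5.

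GOT1 (chr10:99396870-99431569, minus strand), the cytosolic aspartate aminotransferase of the malate-aspartate shuttle, was measured at 136, 153, 142 and 158 CPM in the K562 libraries, 90.1, 97.8, 95.0 and 87.0 CPM in those of K/VP.5 and 78.9, 109, 87.8 and 76.1 CPM in those of edit-3. K562 was above the other lines in all libraries, and edit-3 spread around K/VP.5 (log2 fold change -0.75, SE 0.1, edgeR adjusted p = 3.1e-05 against K562). GLUD1, the mitochondrial glutamate dehydrogenase, was picked out after its values were seen, for its small spread. It had 218, 217, 208 and 228 CPM in the K562 libraries, 124, 129, 133 and 124 CPM in those of K/VP.5 and 132, 142, 130.3 and 127 CPM in those of edit-3. The K562 libraries lay far above the other 8, and K/VP.5 and edit-3 overlapped (log2 fold change -0.71, SE 0.061, edgeR adjusted p = 3e-07 for edit-3 against K562). GLUD1 exons overlap those of SHLD2 on the other strand, which held 26923 reads over all libraries against 57029 of GLUD1, so reads may be mixed. Of 8 shuttle and glutamate partners, 1 was higher and 2 lower in edit-3 than in K562, against 20.6% and 18.6% of all tested genes. GLUL, glutamine synthetase, was the higher one (log2 fold change 0.78, edgeR adjusted p = 0.0090).

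PGAM1, a glycolytic mutase with 13 named pseudogenes, was measured at 525, 582, 526 and 699 CPM in the K562 libraries, 269, 337, 278 and 414 CPM in those of K/VP.5 and 277, 245, 339.7 and 383 CPM in those of edit-3 (log2 fold change -0.91, SE 0.16, edgeR adjusted p = 0.00054 for edit-3 against K562). PI4K2A, a lipid kinase of the trans-Golgi and endosomes, had 43.7, 57.6, 45.6 and 82.4 CPM in the K562 libraries, 21.7, 24.3, 21.9 and 27.7 CPM in those of K/VP.5 and 22.3, 34.2, 30.7 and 29.8 CPM in those of edit-3 (log2 fold change -0.97, SE 0.19, edgeR adjusted p = 0.0011). In both, every K562 library lay above every edit-3 library. Without K562 replicate 4 and edit-3 replicate 1 the log2 fold change of PI4K2A was -0.63 against K562, and against K/VP.5 it was 0.40 and passed (adjusted p = 0.014, within a range of 0.014 to 0.55 over all alternatives), where with all libraries it did not (log2 fold change 0.29, SE 0.19, edgeR adjusted p = 0.31). ENTPD1 encodes the ectonucleotidase CD39, and its antisense partner held 3114 reads against 1505 of its own, so its values are uncertain; its means were 6.33 ± 1.79, 3.13 ± 0.465 and 3.16 ± 0.961 CPM.

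ALDH18A1, which makes a precursor of proline, and SFXN3, a mitochondrial carrier of serine, did not follow the other members. ALDH18A1 (chr10:95605929-95656706, minus strand) had 218, 207, 223 and 176 CPM in the K562 libraries, 231, 232, 228 and 193 CPM in those of K/VP.5 and 254, 190.3, 214 and 209 CPM in those of edit-3. All 3 lines overlapped, and neither comparison of edit-3 passed (log2 fold change -0.03 against K/VP.5 and 0.07 against K562). SFXN3 (chr10:101031234-101041244, plus strand) stood at 0.672, 2.03, 1.06 and 2.86 CPM in the K562 libraries, 2.81, 3.15, 2.62 and 4.02 CPM in those of K/VP.5 and 6.01, 8.61, 8.94 and 9.07 CPM in those of edit-3. Edit-3 was above both lines in every library, and K562 overlapped K/VP.5. SFXN3 rose in edit-3 against K/VP.5 (log2 fold change 1.37, SE 0.31, edgeR adjusted p = 0.0056; ratio 2.58) and against K562 (log2 fold change 2.31, SE 0.33, edgeR adjusted p = 7.3e-05; ratio 4.96). Its gene body begins inside that of PDZD7, on the other strand, which also rose in edit-3 against K/VP.5 (log2 fold change 1.30, edgeR adjusted p = 0.0053). PDZD7 had only 46, 74 and 174 reads in K562, K/VP.5 and edit-3.

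The group of traffic, cilium and cytoskeleton had 12 members. In edit-3, 10 were lower and 1 higher than in K562 (median -0.59), and against K/VP.5, 3 fell and 2 rose (median -0.05). ARL3 (chr10:102673731-102714407, minus strand), a small GTPase that releases lipid-modified cargo in the primary cilium, was measured at 17.6, 16.4, 16.1 and 17.7 CPM in the K562 libraries, 11.7, 10.3, 10.0 and 10.2 CPM in those of K/VP.5 and 7.01, 6.51, 6.09 and 5.58 CPM in those of edit-3. The lines stepped down without overlap. Its means were 16.9 ± 0.824, 10.6 ± 0.791 and 6.30 ± 0.610 CPM, and ARL3 fell in edit-3 against K/VP.5 (log2 fold change -0.75, SE 0.1, edgeR adjusted p = 8.2e-05; ratio 0.596) and against K562 (log2 fold change -1.43, SE 0.1, edgeR adjusted p = 4.8e-08).

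TBC1D12, a Rab GTPase activating protein, had 40.0, 42.6, 41.9 and 30.7 CPM in the K562 libraries, 29.5, 33.7, 33.8 and 26.1 CPM in those of K/VP.5 and 24.4, 22.3, 21.3 and 21.4 CPM in those of edit-3. Edit-3 lay below every other library and fell against K/VP.5 (log2 fold change -0.46, SE 0.11, edgeR adjusted p = 0.0079). ADD3, an adducin that caps actin and binds spectrin, stood at 88.0, 81.8, 83.4 and 103 CPM in the K562 libraries, 63.9, 59.9, 66.0 and 64.9 CPM in those of K/VP.5 and 44.3, 56.3, 47.2 and 47.4 CPM in those of edit-3. It too fell in edit-3 without overlap (log2 fold change -0.38, SE 0.09, edgeR adjusted p = 0.0061).

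DNMBP, an exchange factor for CDC42 that binds dynamin, had 16.5, 14.2, 14.8 and 15.01 CPM in the K562 libraries, 12.4, 13.6, 14.9 and 14.3 CPM in those of K/VP.5 and 17.1, 22.2, 18.3 and 19.9 CPM in those of edit-3. Edit-3 stood above both lines in all 4 libraries and rose against K/VP.5 (log2 fold change 0.49, SE 0.1, edgeR adjusted p = 0.0024) and against K562 (log2 fold change 0.36, SE 0.1, edgeR adjusted p = 0.011). HPS1, a subunit of a complex that builds lysosome-related organelles, was measured at 54.2, 56.6, 58.5 and 61.2 CPM in the K562 libraries, 30.8, 31.5, 32.0 and 30.9 CPM in those of K/VP.5 and 35.6, 37.7, 42.6 and 42.7 CPM in those of edit-3. Its edit-3 values lay between the other lines, above K/VP.5 (log2 fold change 0.34, SE 0.076, edgeR adjusted p = 0.0041) and below K562 (log2 fold change -0.54, SE 0.076, edgeR adjusted p = 4.3e-05). TCTN3, a protein of the ciliary transition zone, had 57.3, 57.0, 52.1 and 50.1 CPM in the K562 libraries, 62.7, 68.5, 67.4 and 67.5 CPM in those of K/VP.5 and 60.5, 63.9, 53.2 and 60.8 CPM in those of edit-3. K/VP.5 was above K562 in every library, edit-3 overlapped both, and neither test of edit-3 passed (edgeR adjusted p = 0.15 against K/VP.5 and 0.17 against K562). TCTN3 and ALDH18A1 lie next to each other in the list's chromosome order.

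Translation control was represented by 2 members. PDCD4, an inhibitor of the helicase eIF4A, stood at 13.0, 27.6, 12.6 and 36.4 CPM in the K562 libraries, 12.2, 13.4, 13.9 and 15.3 CPM in those of K/VP.5 and 12.1, 33.8, 14.96 and 17.6 CPM in those of edit-3. K562 ran from 12.6 to 36.4 CPM and edit-3 from 12.1 to 33.8 CPM, all lines overlapped, and neither test of edit-3 passed (edgeR adjusted p = 0.38 against K/VP.5 and 0.74 against K562). Its exons overlap BBIP1 on the other strand. CPEB3, which binds the 3′ ends of mRNAs and regulates their translation, had means of 4.80 ± 1.59, 3.16 ± 0.678 and 3.09 ± 0.740 CPM and was lower in edit-3 than in K562 close to the threshold (log2 fold change -0.63, SE 0.23, edgeR adjusted p = 0.044).

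The partner lists, fixed with earlier results of these data known, put the members beside genes of the same complexes and pathways. Their median log2 fold changes in edit-3 against K562 were -0.01 for cohesin, -0.21 for NF-κB and IKK, -0.04 for TFIID, -0.05 for exosome and pre-ribosome factors, 0.11 for the malate-aspartate shuttle, -0.39 for fatty acid synthesis and 0.06 for SHOC2 and RAS, while that of the 56 members was -0.63 and that of all tested genes 0.0045. These are descriptions of counts and medians, with no test of the lists.

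**Figure D5:**
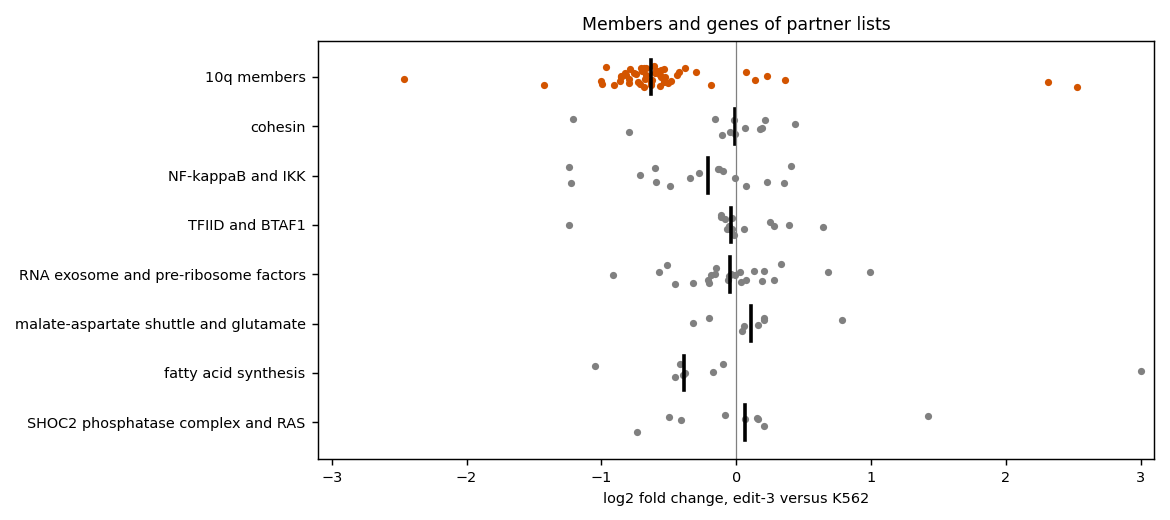
Log2 fold change of edit-3 against K562 for the 56 tested members (orange) and for the genes of 7 partner lists (grey), with the median of each as a black bar. The members' bar lies at -0.63, and 5 of the 7 lists have theirs between -0.05 and 0.11; 1 gene beyond the axis, SCD5, is drawn at its edge.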

How the data were processed

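RNA of 12 libraries was counted per gene. The authors deposited raw read counts as whole numbers, not normalized, for 58395 genes. The submitters' processing notes name GRCh38, HISAT2 2.1.0 and featureCounts of Subread 1.5.1. Annotation release, strand setting and the handling of multi-mapped reads: not given in the sources used here. Lines were taken from the source names and replicate numbers from the titles. The members, their roles, the partner lists and the naming rule were chosen with earlier results of these data known.

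The analysis used edgeR 4.0.16 under R 4.3.3. Genes under the filterByExpr limits (minimum count 10, total 15) were removed, which left 18286 genes with 99.9% of the reads. Library sizes were scaled by TMM, CPM was computed from them, and a model with 1 mean per line was fitted to all 12 libraries. Each pair of lines was compared by the robust quasi-likelihood test of edgeR, p-values were Benjamini-Hochberg adjusted over the 18286 genes, and called means an adjusted p below 0.05. The SE is the size of a fold change over the square root of its F statistic. Values of K/VP.5 against K562 are descriptions, since they chose the genes. Those of edit-3 against K562 are descriptions too, since the same K562 libraries entered the choice and edit-3 came from K/VP.5.

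Named by rule were the 6 highest and 6 lowest tested members of each comparison and 12 fixed members. Outside this rule, PDCD11, BTRC, ERLIN1, SLK, SUFU, SHOC2, CUTC, CNNM2 and CPEB3 were named too. So were EXOSC1, ZDHHC16 and GLUD1, and the choice of these genes was not fixed beforehand. Partner lists name up to 3 called genes with the largest changes, and SMC1A and RAD21 besides, as ring subunits picked afterwards. RELB, NFKBIA, DIS3, EXOSC10, EXOSC5 and EXOSC4 were also named beyond this limit. Coordinates came from GENCODE 29, where 58275 IDs matched, and promoter windows from RefSeq. Alternatives were DESeq2 1.42.0, its size factors, no filter, a stricter filter (1 CPM in 4 libraries), only the 2 lines compared, a replicate block, and leaving out each library. The fit without K562 replicate 4 and edit-3 replicate 1 was chosen after seeing the data.

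No library looked like a copy of another (chi-square per degree of freedom 6.68 to 67.4). K562 and K/VP.5 libraries with the same number deviated from their line means with r = 0.31, 0.15, 0.14 and 0.51. K562 replicate 3 was closer to K/VP.5 replicate 1 (r = 0.29) than to the library of its own number. With edit-3, r for the same number ran from -0.11 to 0.47. No label names pairs, and the main fit took none in any comparison. Only the replicate block used the numbers. The scripts were tested on simulated counts.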

Additional observations from a re-analysis of the deposited data

Results flagged for a closer look

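In the 27 named members, 81 groups of 4 libraries were examined for a library that lies far from the other 3, and 6 had one (7.41%, where chance gives about 1 in 20). ALDH18A1 stood at 193 CPM in K/VP.5 replicate 4, below 228 to 232 CPM in the other K/VP.5 libraries. RRP12 had 139 CPM in the same library, against 178 to 186 CPM in the others. ARL3 was highest in K/VP.5 replicate 1, at 11.7 CPM against 10.0 to 10.3 CPM. HELLS stood at 67.3 CPM in edit-3 replicate 1, above 53.4 to 54.8 CPM in the other edit-3 libraries. SFXN3 was lowest in that library, at 6.01 CPM against 8.61 to 9.07 CPM. NT5C2 had 42.2 CPM in K562 replicate 1, against 31.7 to 33.0 CPM in the other K562 libraries.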

How the results depend on the processing

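Of 808 values of single named members under the alternatives, 18 in 8 results had the other sign, where the lowest adjusted p in either fit was 0.49. For edit-3 against K/VP.5 these were HHEX, HELLS, PGAM1, ENTPD1, SMC3 and ALDH18A1, and against K562 ALDH18A1 and PDCD4, which went from -0.19 to 0.33 without K562 replicate 4 and edit-3 replicate 1. The median of the other genes of the span in edit-3 against K/VP.5 went from -0.01 to 0.01 without edit-3 replicate 3. For edit-3 against K/VP.5, members called lower went from 7 to 11 with the replicate block and to 13 without K562 replicate 4 and edit-3 replicate 1, and the other genes of the span called lower from 7 to 13 and 12; the latter fit called 16 of these higher in place of 10. With single libraries left out, these other genes gave 4 to 7 lower and 6 to 13 higher, with 4 lower without K/VP.5 replicate 1 or edit-3 replicate 3, and 6 higher without K/VP.5 replicate 1 or edit-3 replicate 4. For edit-3 against K562, the other genes of the span called higher went from 11 to 7 with only the 2 lines compared, where 96 of them were tested, and their median from -0.66 to -0.58 without the 2 libraries. Members higher in K/VP.5 than in K562 were 2, and 1 with no filter or with only the 2 lines, and 1 to 3 with single libraries left out. The causes were not tested. Shares of all tested genes called are given for the main fit only. Changes in the counts under the alternatives, above and below, are therefore not results about the members or the span. With single libraries left out, members called lower numbered 42 to 47 in K/VP.5 against K562, 6 to 9 in edit-3 against K/VP.5 and 47 to 48 in edit-3 against K562. Under the block, 48 members were lower in K/VP.5 than in K562 and 49 in edit-3 than in K562, and 5 were higher in edit-3 than in K/VP.5. Of 376 values of single members under the other alternatives 363 stayed on their side of the threshold, 8 passed it newly and 5 no longer passed; of 432 with single libraries left out these numbers were 424, 3 and 5, the 5 being PCGF5 in edit-3 against K562. The number of libraries, 4 per line, and for PIK3AP1, SFXN3 and ENTPD1 the few reads, limit the precision.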

Other observations

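Genes beside and between the members were described by the fixed rule. Of the 3 tested protein-coding genes just before TSPAN14, ANXA11, a calcium-dependent membrane binder, stood at 218 ± 7.57, 207 ± 4.43 and 215 ± 16.1 CPM (SD, n = 4) in K562, K/VP.5 and edit-3, and neither comparison of edit-3 passed (edgeR adjusted p = 0.61 against K/VP.5 and 0.81 against K562). TMEM254 had 116, 111 and 0 reads over the 4 libraries of the 3 lines, and FAM213A 35, 181 and 71. Just after SHOC2, GPAM did not pass in either comparison of edit-3, while ZDHHC6 and VTI1A were lower in edit-3 than in K562 by -1.13 and -0.36 on the log2 scale (edgeR adjusted p = 3.3e-06 and 0.00072).

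Among the 100 other tested protein-coding genes between the first and last member, the lowest fold changes in edit-3 against K/VP.5 were those of HTR7 (-4.35 on the log2 scale, 96 reads in K/VP.5 and 4 in edit-3), NEURL1 (-3.39) and SORCS1 (-1.08). The highest were PPP1R3C, a glycogen-targeting subunit of a protein phosphatase (3.96), MYOF (2.42) and PDZD7 (1.30). PPP1R3C had 1310, 23 and 344 reads in K562, K/VP.5 and edit-3, and NEURL1, a ubiquitin ligase that acts on Notch ligands, had 471, 1220 and 109. The edgeR adjusted p of these 6 in that comparison ran from 7.7e-07 (NEURL1) to 0.039 (MYOF).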
